A study of Mus musculus with 20 samples.

Results

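The 9 genes followed here form an axis that has been tied to branching of the salivary gland: Btbd7, the transcription factors Snai2, Snai1, Zeb1 and Zeb2, the cadherins Cdh1 and Cdh2, and the mesenchymal genes Vim and Fn1. They were listed by symbol and matched in GENCODE M21, and all 9 were found among the 55471 genes of the count table. SIMS cells, an epithelial line from mouse salivary gland, gave 20 total RNA libraries in 5 groups of 4. The groups were unedited wild type, a Btbd7 knockout (KO) and 3 Zcchc8 KO clones, named clone 1, clone 2 and clone 3. All were grown in DMEM with serum, and the KO cells were made with CRISPR/Cas9. Each Zcchc8 group is 1 clone, and whether the Btbd7 KO cells are 1 clone or a pool is not given in the sources used here. The series uses the Btbd7 KO as its negative control for Zcchc8, so the Btbd7 KO libraries can also be set against wild type for their own sake. The labels do not say that the 4 libraries of a group came from separate cultures, so the p-values measure the spread between libraries, which may be technical.

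BTBD7 is a BTB-domain protein that is induced where fibronectin gathers in the clefts of a budding gland, and it is known there for raising the transcription factor SNAI2 and lowering the adhesion protein E-cadherin, the product of Cdh1. SNAI1, SNAI2, ZEB1 and ZEB2 are zinc-finger repressors that bind E-box sites and are best known for silencing Cdh1 when epithelial cells take on a mesenchymal character. In that transition N-cadherin (Cdh2), vimentin (Vim) and fibronectin (Fn1) usually rise. ZCCHC8 is the scaffold of the NEXT complex, which hands short-lived nuclear RNA to the exosome. Among its substrates are PROMPTs, unstable transcripts made upstream of active promoters, and these were counted for each gene in a table of their own.

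The libraries held 6833258 to 17771804 counts in genes. The clone 1 libraries held 6833258 to 7683444 and the wild-type libraries 13876944 to 17771804, so counts at or near 0 are less informative in clone 1. Wild-type replicate 1 detected 14245 genes, fewer than any other library (the remaining 3 of its group detected 17442 to 18791), and has no column in the PROMPT table. Results that rest on this library are given with and without it. Between replicate pairs of wild type, chi-square per degree of freedom was 6.51 to 78.6, and 6.51 to 18.2 without replicate 1. In the other groups this measure, which also grows with depth, was 2.89 to 8.46. The tests share 1 estimate of the spread over all groups, so they may understate the spread of wild type. Zcchc8, the other edited gene, was at 64.4 ± 2.90 CPM (counts as a share of the library total scaled by TMM; SD, n = 4) in wild type. Clone 1 had 60.9 ± 4.27 CPM, clone 2 had 23.5 ± 1.44 and clone 3 had 54.4 ± 4.90 (SD, n = 4 each). Its RNA passed the test as lower in clone 2 (log2 change -1.46, edgeR adjusted p = 8.83e-13) and clone 3 (-0.25, edgeR adjusted p = 0.0188) and not in clone 1 (-0.08, edgeR adjusted p = 0.468). The call in clone 3 was lost without clone 3 replicate 3 or 4, among other settings (edgeR adjusted p 0.00619 to 0.0881 over the alternatives). The cells carried epithelial markers: the 5 markers of duct luminal cells summed to 2295 to 4111 CPM in every library. The 6 acinar markers summed to 166 to 187 CPM in wild type and 109 to 113 in Btbd7 KO. In clones 1, 2 and 3 the sums were 137 to 166, 128 to 156 and 114 to 125 CPM. Most of the acinar sum was Aqp5, with a mean of 176 CPM in wild type and 110 in Btbd7 KO. Smgc and Bpifa2 were at 0 throughout. The summed level of the 7 fibroblast markers was 11.3 to 18.2 CPM in wild type, 22.4 to 35.1 in Btbd7 KO, and 10.2 to 14.4, 24.6 to 28.6 and 22.0 to 26.4 in clones 1, 2 and 3. Lum was at 0 in all libraries, and Dcn and Pdgfrb never passed 0.395 and 0.119 CPM. Most of the sum was Col1a1. The basal and myoepithelial markers summed to 252 to 394 CPM in wild type, 396 to 419 in Btbd7 KO, and 167 to 216, 279 to 349 and 196 to 226 in clones 1, 2 and 3. Most of the basal and myoepithelial sum was Krt14, with a mean of 315 CPM in wild type and 409 in Btbd7 KO. Krt5, Myh11, Acta2 and Cnn1 never passed 1.36, 1.46, 0.146 and 0.141 CPM. Trp63 had a mean of 20.9 CPM in clone 2, 2.40 in wild type and 0.567 in Btbd7 KO. Immune markers summed to 4.05 to 13.6 CPM over all libraries with Adgre1 at 0, and most of that sum was Cd68. Endothelial markers summed to at most 1.16 CPM and glial markers to at most 6.75 CPM with Sox10 at 0.

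Per kilobase of exon, the wild-type levels of the members ran from Fn1 at 247 ± 9.64 CPM per kb through Cdh1 at 86.0 ± 5.05 and Btbd7 at 12.1 ± 0.478 (SD, n = 4 each). The repressors came far below. Snai1 was at 2.53 ± 1.25 and Zeb1 at 1.30 ± 0.669 CPM per kb (SD, n = 4), and these neighbours overlapped between libraries. Zeb2 was at 0.238 ± 0.0265 and Vim at 0.0750 ± 0.0506 CPM per kb (SD, n = 4). Cdh2 and Snai2 were at or near 0. The cells thus carried abundant E-cadherin and fibronectin RNA and hardly any RNA for vimentin or N-cadherin. In bulk RNA, fewer cells expressing a gene and less RNA per cell cannot be told apart.

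**Figure D1:**
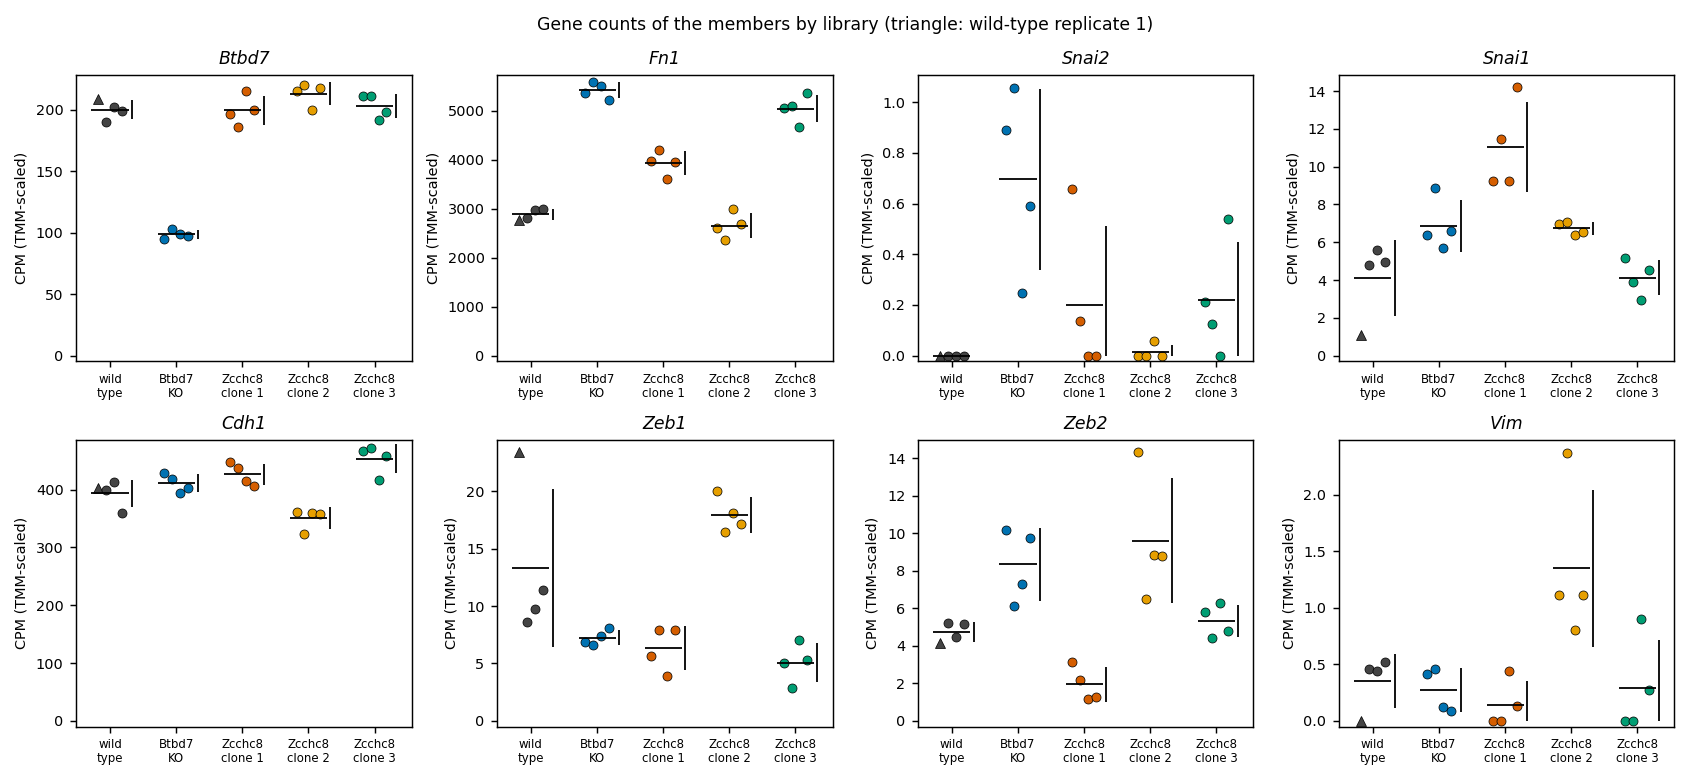
CPM of 8 members in each of the 20 libraries, by group, on linear axes that differ between panels; each point is 1 library, horizontal lines are means, vertical lines are 1 SD and triangles mark wild-type replicate 1. Btbd7 in the Btbd7 KO sits at 94.5 to 103 CPM, below every other library, while Snai2 has counts in all 4 Btbd7 KO libraries and in no wild-type library.

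Of the 7 members with enough counts to be tested, 4 passed the test in Btbd7 KO against wild type: Btbd7 and Zeb1 fell, and Fn1 and Zeb2 rose. Across all 15296 tested genes, 15.8% were called in this comparison (quasi-likelihood test of edgeR, with p-values adjusted over all tested genes by Benjamini-Hochberg and a threshold of 0.05), 8.01% as higher and 7.79% as lower. Snai2 and Cdh2 were under the filter on low counts. The members' median log2 fold change was 0.06, against 0.02 over all tested genes. Called members numbered 2 to 4 when single libraries were left out, and Zeb1 and Zeb2 were the ones lost. The same fits called 1830 to 3152 genes in all.

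Btbd7 (ENSMUSG00000041702.7, chromosome 12, 102780797 to 102878471, minus strand, GRCm38) stood at 208, 189.6, 202 and 199 CPM in the 4 wild-type libraries and at 94.5, 103, 99.1 and 97.6 CPM in the Btbd7 KO libraries. The groups did not overlap, and the KO kept 49.3% of the wild-type level (log2 change -1.02, SE 0.06, edgeR adjusted p = 3.42e-12). The count covers the whole gene, so it does not show whether the remaining RNA encodes a protein. In the Zcchc8 KO clones Btbd7 was at 199 ± 12.0, 213 ± 9.26 and 203 ± 9.73 CPM (SD, n = 4 each), and none of the clones passed the test against wild type. For clone 1 the 95% interval of the log2 fold change was -0.12 to 0.11. For clone 2 the log2 fold change ran from 0.05 to 0.15 over the alternatives. Its adjusted p there (edgeR and DESeq2) ran from 0.0345 to 0.628, so at least 1 alternative called it. The clones did not differ detectably among themselves in Btbd7 (edgeR test with 2 degrees of freedom, adjusted p = 0.424), although 28.3% of all tested genes did. Gm47166, an unclassified transcript of 1709 bases that lies inside Btbd7 on the same strand, was at 4.61 ± 0.950 CPM in wild type and 1.90 ± 0.872 in Btbd7 KO (SD, n = 4 each). Its reads cannot be told apart from Btbd7 pre-mRNA. Of the 9 tested relatives in the list of other BTBD genes, 0 rose and 0 fell in Btbd7 KO (edgeR adjusted p; 1 had an unadjusted p under 0.05, and DESeq2 called 1), and the closest to the threshold, Btbd6, was at -0.54 on the log2 scale (SE 0.19, edgeR adjusted p = 0.0539).

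Snai2 (ENSMUSG00000022676.7, chromosome 16, 14705852 to 14709385, plus strand) encodes the repressor placed downstream of BTBD7 in the gland. It had 0 counts in all 4 wild-type libraries and 15, 16, 2 and 7 counts in the Btbd7 KO libraries. In CPM the Btbd7 KO was at 0.696 ± 0.357 (SD, n = 4). The groups did not overlap: with wild type at 0, the Btbd7 KO was at least 16.4-fold higher, taking 3 counts over the wild-type group as the floor. An exact permutation test of the CPM gave p = 0.0286 (two-sided), the smallest that 4 against 4 libraries can give, and 0.152 after adjustment over the 8 such tests made here. Fitted in edgeR without the low-count filter, Snai2 passed the test over all genes in this comparison (adjusted p = 0.00141), and also in clone 1 (adjusted p = 0.0320) and clone 3 (adjusted p = 0.0204), but not in clone 2 (adjusted p = 0.522). Clone 1 had 5, 1, 0 and 0 counts, clone 2 had 0, 0, 1 and 0, and clone 3 had 3, 1, 0 and 8. In counts each clone overlapped wild type, and the exact p-values were 0.429, 1 and 0.143 (two-sided permutation tests, adjusted 0.571, 1 and 0.286). Even its highest library, Btbd7 KO replicate 2, reached only 1.06 CPM.

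Snai1 (ENSMUSG00000042821.7, chromosome 2, 167538195 to 167542814, plus strand), the closest relative of Snai2 in the list, was detected in every library. Wild type stood at 1.10, 4.80, 5.58 and 4.95 CPM, with replicate 1 the low one. Btbd7 KO was at 6.36, 8.85, 5.68 and 6.57 CPM, all above wild type, but the difference did not pass the test (log2 change 0.75, SE 0.29, edgeR adjusted p = 0.0861). Without wild-type replicate 1 it was 0.44 (edgeR adjusted p = 0.144), and over all alternatives the adjusted p ran from 0.0409 to 0.304. Clone 1 was the highest group, at 9.22, 11.4, 9.22 and 14.2 CPM. It lay above all wild-type libraries and was 2.68-fold higher (log2 change 1.42, SE 0.30, edgeR adjusted p = 0.000512), and without wild-type replicate 1 the log2 fold change was 1.10 and still called. Clone 2, at 6.74 ± 0.339 CPM, and clone 3, at 4.13 ± 0.940 CPM (SD, n = 4 each), did not pass the test. In order of level, clone 1 was followed by Btbd7 KO and clone 2, which overlapped, and then by clone 3 and wild type, which also overlapped. The 3 clones differed in Snai1 (edgeR test with 2 degrees of freedom, adjusted p = 0.00283).

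Zeb1 (ENSMUSG00000024238.15, chromosome 18, 5591860 to 5775467, plus strand) depended on wild-type replicate 1. The wild-type libraries were at 23.4, 8.57, 9.76 and 11.4 CPM and the Btbd7 KO libraries at 6.84, 6.60, 7.41 and 8.09. The groups did not overlap, and the log2 fold change of -0.88 (SE 0.26) was called (edgeR adjusted p = 0.0193). Without wild-type replicate 1 it was -0.46 and lost the call (edgeR adjusted p = 0.0900, range over the alternatives 0.000267 to 0.0934). Leaving out Btbd7 KO replicate 1 or 2 also ended the call, at -0.86 and -0.84. Clone 1, at 5.67, 7.90, 3.95 and 7.89 CPM, and clone 3, at 5.01, 2.89, 7.05 and 5.27 CPM, were below all wild-type libraries. Their log2 fold changes were -1.06 (SE 0.27, edgeR adjusted p = 0.00353) and -1.39 (SE 0.27, edgeR adjusted p = 0.000320), and -0.65 and -0.98 without wild-type replicate 1, both still called. Clone 2 went the other way, at 20.02, 16.4, 18.1 and 17.2 CPM. It overlapped wild type through replicate 1 and was not called (0.43, edgeR adjusted p = 0.197). Without that library clone 2 was higher by 0.84 and called (edgeR adjusted p = 0.000355, range over the alternatives 0.000355 to 0.467). The difference between the clones (edgeR test with 2 degrees of freedom, adjusted p = 6.8e-06) does not use wild type as its reference.

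Zeb2 (ENSMUSG00000026872, chromosome 2, 44983632 to 45117395, minus strand) had its own pattern. Wild type was at 4.15, 5.20, 4.48 and 5.19 CPM. Btbd7 KO rose to 10.2, 6.14, 7.28 and 9.77 CPM, with no overlap (log2 change 0.81, SE 0.25, edgeR adjusted p = 0.0263). That call was lost without Btbd7 KO replicate 1 (0.69), Btbd7 KO replicate 4 (0.73) or wild-type replicate 3 (0.78), with edgeR adjusted p from 0.0530 to 0.105 (range over all alternatives 0.0127 to 0.105). Clone 1 fell to 3.16, 2.18, 1.17 and 1.29 CPM, below every wild-type library (log2 change -1.28, SE 0.30, edgeR adjusted p = 0.00159). Clone 2 was higher, at 14.3, 6.52, 8.85 and 8.77 CPM (0.99, SE 0.25, edgeR adjusted p = 0.00339). Clone 3 overlapped wild type at 5.32 ± 0.867 CPM (SD, n = 4; log2 change 0.16, edgeR adjusted p = 0.698). The clones differed (edgeR test with 2 degrees of freedom, adjusted p = 4.91e-06), so their mean, at a log2 fold change of -0.04 against wild type, describes none of them.

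**Figure D2:**
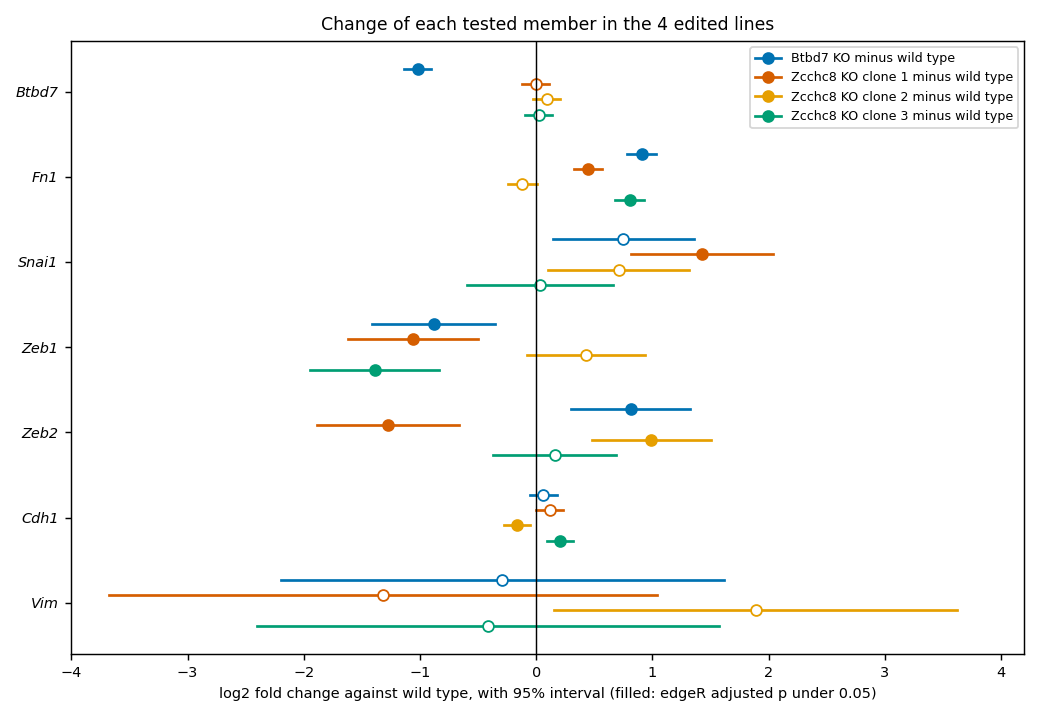
Log2 fold change of each of the 7 tested members in Btbd7 KO and in each Zcchc8 KO clone against wild type, with 95% intervals; filled points passed the edgeR test. Zeb2 lies at 0.81 in Btbd7 KO, -1.28 in clone 1 and 0.99 in clone 2, and Fn1 at 0.91 in Btbd7 KO and 0.81 in clone 3.

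The microRNAs of the miR-200 family are known repressors of Zeb1 and Zeb2, and they are shown here because their genes were counted and their sites lie in Zeb2. Their mature sequences from RefSeq (GRCm38.p6) fall into 2 seed groups, with the seed, bases 2 to 8, in capitals.
mmu-miR-200b-3p: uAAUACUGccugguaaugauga
mmu-miR-200c-3p: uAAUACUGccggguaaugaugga
mmu-miR-429-3p: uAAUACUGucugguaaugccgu
mmu-miR-200a-3p: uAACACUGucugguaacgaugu
mmu-miR-141-3p: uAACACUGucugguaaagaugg
The first 3 share one seed, and the other 2 share another. In the 4941 bases of the 3′ UTR of the Zeb2 transcript Zeb2-212 (GENCODE M21), the match to the first seed occurs 5 times and the match to the second 4 times. The first occurrence of each is printed with its flanks and with the seed match in capitals.
Zeb2 site for miR-200b, chr2:44988163-44988191, minus strand: ctaccatacatCAGTATTttattattatt
Zeb2 site for miR-200a, chr2:44988347-44988375, minus strand: aaaattttgtaCAGTGTTaaggcctaaaa
A match is a description of the letters, not evidence of repression. The libraries counted reads over the miRNA genes, not mature miRNAs. Of the 5 genes only Mir200a passed the low-count filter, with a mean of 8.85 counts per library. It did not differ in Btbd7 KO (log2 change 0.15, edgeR adjusted p = 0.922) and was higher in the mean of the 3 Zcchc8 KO clones (1.89, SE 0.60, edgeR adjusted p = 0.0157). Without wild-type replicate 2 that call was lost, at 1.68 (edgeR adjusted p = 0.0519, range over the alternatives 0.00279 to 0.0519).

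Cdh1 (ENSMUSG00000000303.12, chromosome 8, 106603351 to 106670246, plus strand), which encodes E-cadherin, was at 402, 399.9, 412 and 359.8 CPM in wild type. Btbd7 KO overlapped it, at 428, 419, 393 and 403 CPM. The log2 fold change was 0.06, with a 95% interval of -0.05 to 0.18 (edgeR adjusted p = 0.504). The gene drew 2602 to 7196 counts per library. Clone 2 was slightly lower, at 362, 323, 360.2 and 358 CPM (log2 change -0.17, SE 0.06, edgeR adjusted p = 0.0250). This overlapped wild type and was not called without clone 2 replicate 2 (-0.13, edgeR adjusted p = 0.112; range over the alternatives 0.00470 to 0.155). Clone 3 was slightly higher, at 466, 471, 416 and 459 CPM, all above wild type (0.20, SE 0.06, edgeR adjusted p = 0.00726), and without wild-type replicate 4 it was 0.15 (edgeR adjusted p = 0.0517, range over the alternatives 0.000648 to 0.0538). Clone 1, at 426 ± 18.9 CPM (SD, n = 4), was not called. Over the alternatives (edgeR and DESeq2) its adjusted p ran from 0.0317 to 0.477, so at least 1 of them called it. The largest change of Cdh1 against wild type among the 4 edited lines was thus 1.15-fold, in clone 3. The clones differed among themselves (edgeR test with 2 degrees of freedom, adjusted p = 3.06e-05).

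Cdh2 (ENSMUSG00000024304.14, chromosome 18, 16588877 to 16809246, minus strand), which encodes N-cadherin, had 2 counts in each of 2 wild-type libraries and 0 in the other 18 libraries. Vim (ENSMUSG00000026728.9, chromosome 2, 13573927 to 13582826, plus strand) had 0, 8, 6 and 9 counts in wild type and 7, 7, 1 and 1 in Btbd7 KO. Clone 2 had the most, with 8, 33, 14 and 16 counts (1.35 ± 0.693 CPM, SD, n = 4). No line passed the test against wild type for Vim, and the interval in Btbd7 KO, -2.20 to 1.61 on the log2 scale, shows how little these counts can resolve. The clones differed in Vim (edgeR test with 2 degrees of freedom, adjusted p = 0.0272). Vim passed the low-count filter only through clone 2, where its counts are highest, so this p-value is a description and supports nothing.

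Fn1 (ENSMUSG00000026193.15, chromosome 1, 71585520 to 71653200, minus strand) encodes fibronectin, the matrix protein of branching clefts, and among the members kept by the low-count filter it had the largest increase that passed the test in Btbd7 KO. Wild type was at 2774.5, 2803, 2965 and 2998 CPM, and Btbd7 KO at 5369, 5576, 5500.2 and 5207 CPM. The groups were far apart, and Btbd7 KO was 1.88-fold higher (log2 change 0.91, SE 0.06, edgeR adjusted p = 8.16e-11). Leaving out any single library kept the log2 fold change between 0.89 and 0.92. Clone 3 was at 5045, 5094, 4672 and 5359 CPM, and overlapped Btbd7 KO (0.81 against wild type, SE 0.06, edgeR adjusted p = 1.91e-10). Clone 1 was between, at 3966, 4201, 3596 and 3961 CPM (0.45, SE 0.06, edgeR adjusted p = 2.28e-06). Clone 2, at 2596, 2356, 2990.2 and 2680.3 CPM, overlapped wild type and was not called (-0.12, edgeR adjusted p = 0.134). Without wild-type replicate 1 that difference was -0.15 (edgeR adjusted p = 0.0307, range over the alternatives 0.0119 to 0.494). The order of the groups was Btbd7 KO, clone 3, clone 1, wild type and clone 2, and the neighbours overlapped at both ends of it. The clones differed (edgeR test with 2 degrees of freedom, adjusted p = 4.97e-11). The summed fibroblast markers were also above wild type in Btbd7 KO, in clone 3 and in clone 2, where Fn1 was not higher, and their part in the Fn1 result was not tested. Apol7d, annotated as antisense to the start of Fn1, had 0 to 27 counts per library, against at least 18676 for Fn1.

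Among the receptors that bind fibronectin, 5 of the 8 integrin genes listed were tested, and in Btbd7 KO 0 of the 5 passed the test in either direction (edgeR adjusted p; 2 had an unadjusted p under 0.05, and DESeq2 called 0), where 15.8% of all tested genes did. Their median log2 fold change was -0.12, against 0.02 over all tested genes. Itgb1, the shared beta subunit, was at -0.07 (edgeR adjusted p = 0.397) and Itga5, the alpha subunit of the classical fibronectin receptor, at 0.20 (edgeR adjusted p = 0.138).

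The counts of the next 5 lists are also read against the 15.8% of all tested genes called in Btbd7 KO. Called genes made up 30.0% of the adherens junction list, 40.0% of the epithelial list, 63.6% of the mesenchymal list, 16.7% of the TGF-beta list and 40.0% of the branching list, so the TGF-beta share was near that of all genes. The partners of E-cadherin at the adherens junction were mixed in Btbd7 KO. Of 10 tested, 2 rose and 1 fell, with a median of -0.02. Jup, which encodes plakoglobin, rose by 0.32 (SE 0.08, edgeR adjusted p = 0.00869), and Cbll1, a ubiquitin ligase of E-cadherin, by 0.31 (SE 0.11, edgeR adjusted p = 0.0494). The second of these calls was lost when 7 of the 8 libraries were left out in turn. Ctnnd1, which encodes p120-catenin, fell by 0.42 on the log2 scale (SE 0.11, edgeR adjusted p = 0.00940). Without wild-type replicate 1 it was at -0.26, still called. With only Btbd7 KO and wild type in the edgeR fit all 3 calls were lost, and over the alternatives the adjusted p reached 0.0995 for Jup, 0.195 for Cbll1 and 0.0834 for Ctnnd1. Beta-catenin (Ctnnb1) was at -0.11 (edgeR adjusted p = 0.119).

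In the list of epithelial identity genes, 3 of 20 rose and 5 fell in Btbd7 KO, with a median of -0.14. The desmosome gene Dsp fell by 0.58 on the log2 scale (SE 0.06, edgeR adjusted p = 1.05e-07). The channel-activating protease Prss8 fell by 0.65 (SE 0.10, edgeR adjusted p = 8.03e-05), and Ocln, a tight-junction gene, fell by 0.35 (SE 0.07, edgeR adjusted p = 0.000621). Cldn7, another tight-junction gene, rose by 0.41 (SE 0.09, edgeR adjusted p = 0.00238). Krt19 and Cldn4 were called at 0.33 and 0.24 (edgeR adjusted p = 0.0347 and 0.0386), and each of these calls was lost without several single libraries. Krt19 was at 0.19 without wild-type replicate 1. In the edgeR fit of these 2 groups alone Cldn7 also lost its call, and the highest adjusted p over the alternatives was 0.0562 for Cldn7, 0.191 for Krt19 and 0.150 for Cldn4.

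Of the 20 mesenchymal genes listed, 11 were tested and 5 rose while 2 fell in Btbd7 KO, with a median of 0.43. The matrix protein gene Sparc rose by 0.43 (SE 0.06, edgeR adjusted p = 8.38e-06) and the collagen gene Col1a1 by 0.67 (SE 0.15, edgeR adjusted p = 0.00328). The Col1a1 call was lost with only these 2 groups in the edgeR fit, where the adjusted p was 0.0686, the highest over the alternatives. Tgfbi fell by 1.01 (SE 0.23, edgeR adjusted p = 0.00305) and S100a4 by 0.95 on the log2 scale (SE 0.25, edgeR adjusted p = 0.00901). Col1a1, Col1a2 and Col3a1, all called higher, are also in the fibroblast marker list, whose sum was 22.4 to 35.1 CPM in Btbd7 KO against 11.3 to 18.2 in wild type. Lum was at 0 and Dcn at or under 0.119 CPM in those groups.

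In the TGF-beta pathway 1 of 12 genes rose and 1 fell in Btbd7 KO: the ligand gene Tgfb3 at 0.50 (SE 0.08, edgeR adjusted p = 0.000121) and the receptor gene Tgfbr1 at -0.35 (SE 0.08, edgeR adjusted p = 0.00390). Of the 26 genes listed for salivary branching, 15 were tested, and 2 rose and 4 fell. The growth factor receptor gene Fgfr1 fell by 1.32 (SE 0.17, edgeR adjusted p = 3.98e-06), the Kit ligand gene Kitl by 0.74 (SE 0.08, edgeR adjusted p = 6.83e-07) and Erbb3 by 0.42 on the log2 scale (SE 0.06, edgeR adjusted p = 3.56e-05). Nrg1, which encodes a ligand of ERBB3, rose by 0.64 (SE 0.13, edgeR adjusted p = 0.00124), and the laminin receptor gene Itga3 by 0.40 (SE 0.10, edgeR adjusted p = 0.00528). Without wild-type replicate 1, Tgfbr1 was at -0.22 and Itga3 at 0.26, both still called. Both calls were lost with only these 2 groups in the edgeR fit (adjusted p up to 0.0639 for Tgfbr1 and 0.0834 for Itga3 over the alternatives).

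**Figure D3:**
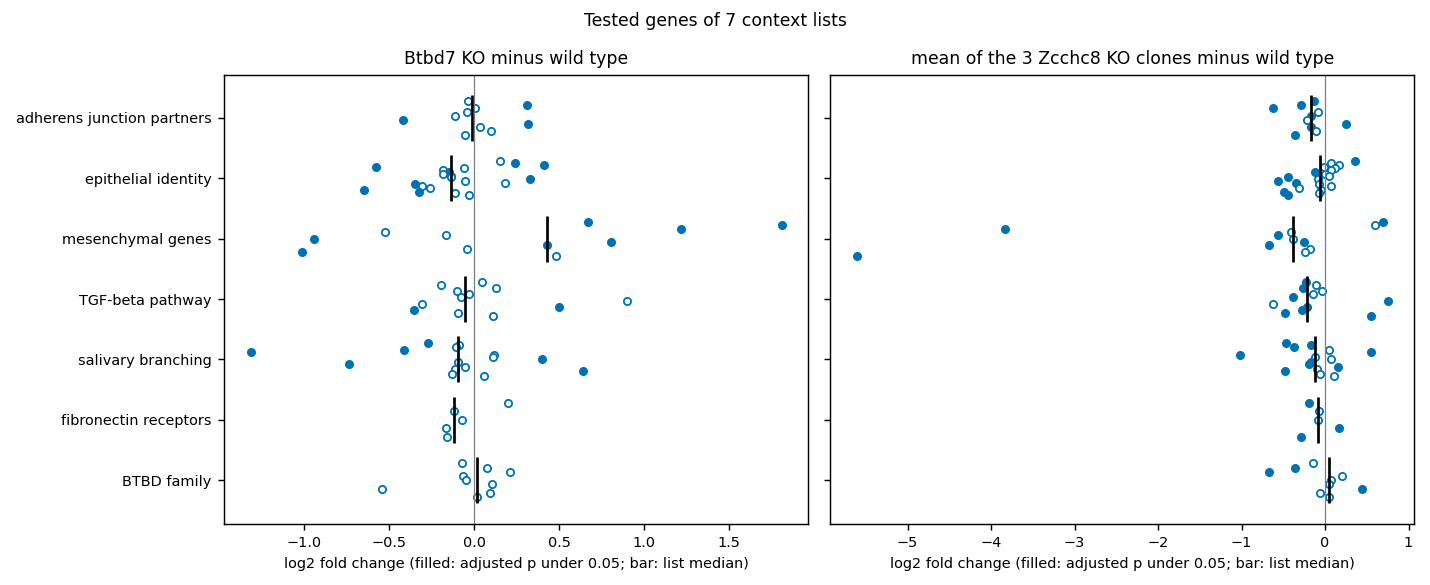
Log2 fold changes of the tested genes in 7 context lists, in Btbd7 KO (left) and in the mean of the 3 Zcchc8 KO clones (right) against wild type; each circle is a gene, filled circles passed the edgeR test, bars are list medians and the axes differ between panels. The mesenchymal list has its median at 0.43 on the left and at -0.38 on the right, where Tnc lies at -5.61.

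The mean of the 3 Zcchc8 KO clones against wild type called 3 of the 7 tested members, against 35.4% of all tested genes (17.7% higher and 17.7% lower). Of all calls 2704 were higher and 2713 lower, and with total counts in place of TMM 3229 and 2005. Fn1 was higher by 0.38 (SE 0.05, edgeR adjusted p = 1.80e-06), Snai1 by 0.72 (SE 0.25, edgeR adjusted p = 0.0257), and Zeb1 lower (-0.67, SE 0.20, edgeR adjusted p = 0.0110). Without wild-type replicate 1, Fn1 alone remained called, with Snai1 at 0.40 (edgeR adjusted p = 0.0686) and Zeb1 at -0.26 (edgeR adjusted p = 0.199). Over the alternatives the adjusted p ran from 0.00788 to 0.659 for Snai1 and from 0.000113 to 0.951 for Zeb1. With counts summed per line and the 3 clones set against the 2 other lines, wild type and Btbd7 KO together, 0 members passed the edgeR test (0 also at an unadjusted p under 0.05), and Fn1, high in Btbd7 KO, was at -0.11. Single clones called 4 members in clone 1, 2 in clone 2 and 3 in clone 3, against 35.1%, 31.7% and 28.9% of all tested genes. The higher calls made up 18.3%, 17.3% and 14.5% of those genes and the lower calls 16.8%, 14.4% and 14.4%. In the test between the clones, 6 of the 7 tested members differed, all but Btbd7, beside the 28.3% given above. Vim was among them and was tested only because its counts are high in clone 2.

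In the context lists the clones' mean is read against the 35.4% of all tested genes called, equally often in each direction. Called genes made up 54.5% of the mesenchymal, 70% of the adherens junction, 35% of the epithelial and 66.7% of the TGF-beta list. The branching and fibronectin receptor lists were at 60% each and the BTBD list at 33.3%. The epithelial and BTBD shares were thus near that of all genes. In the mesenchymal list 1 of 11 genes rose and 5 fell, with a median of -0.38. Sparc, which rose in Btbd7 KO, fell in the clones' mean by 0.68 on the log2 scale (SE 0.05, edgeR adjusted p = 2.45e-11). Tnc, which encodes the matrix protein tenascin-C, was far lower (-5.61, SE 0.22, edgeR adjusted p = 4.95e-16), while Col1a1 rose by 0.69 (SE 0.13, edgeR adjusted p = 0.000198). Col1a1 had a mean of 11.3 CPM in wild type and 10.8 in clone 1, against 24.5 in clone 2 and 22.8 in clone 3, so the mean does not describe clone 1. Of 10 adherens junction partners 1 rose and 6 fell: Jup rose by 0.26 (SE 0.07, edgeR adjusted p = 0.00477; 0.14 without wild-type replicate 1), Cdh3, which encodes P-cadherin, fell by 0.62 (SE 0.13, edgeR adjusted p = 0.000537), and the vinculin gene Vcl fell by 0.36 (SE 0.04, edgeR adjusted p = 4.27e-07). In the epithelial list 1 rose and 6 of 20 fell, among them Krt7 (-0.56, SE 0.11, edgeR adjusted p = 0.000246), the small GTPase gene Rab25 (-0.49, SE 0.06, edgeR adjusted p = 2.82e-07) and the tight-junction gene Tjp1 (-0.44, SE 0.04, edgeR adjusted p = 1.38e-08). In the other lists 2 of 12 TGF-beta pathway genes rose and 6 fell, 2 of 15 salivary branching genes rose and 7 fell, 1 of 5 fibronectin receptor genes rose and 2 fell, and 1 of 9 other BTBD genes rose and 2 fell. With total counts in place of TMM, 1 adherens junction partner rose and 4 fell, 2 epithelial genes rose and 5 fell, 2 TGF-beta pathway genes rose and 5 fell, 2 branching genes rose and 5 fell, and 1 fibronectin receptor gene rose and 1 fell, while the mesenchymal and BTBD counts were as before. With lines as replicates, where wild type and Btbd7 KO together are the reference, the edgeR calls of Jup (0.09, adjusted p up to 0.822 over the alternatives), Col1a1 (0.35, up to 0.626), Rab25 (up to 0.25), Vcl (up to 0.0647) and Tjp1 (up to 0.0563) were lost. Those of Cdh3, Krt7, Sparc and Tnc were kept, and 939 of the 1080 genes called were higher. This comparison and that of Btbd7 KO share the wild-type libraries.

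Set directly against Btbd7 KO, the mean of the 3 clones called 3 of 7 tested members, against 40.5% of all tested genes (19.8% higher and 20.8% lower). Btbd7 was higher in the clones by 1.06 (SE 0.05, edgeR adjusted p = 1.33e-14). Fn1 was lower (-0.53, SE 0.05, edgeR adjusted p = 1.88e-09), as was Zeb2 (-0.85, SE 0.20, edgeR adjusted p = 0.00145). Cdh1 was at -0.01, with a 95% interval of -0.11 to 0.08. This comparison does not use wild type as its reference.

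PROMPT counts were read upstream of each gene, and how far upstream a PROMPT region reaches is not given in the sources used here. For members whose PROMPT counts bear on the results, the RefSeq promoter table (GRCm38.p6) had Btbd7 and Snai1, and their 250 bases before the start are printed because PROMPTs arise next to such starts. It matched 4 of the 9 members. Capitals mark the E-box searched for, CAGGTG or its reverse complement CACCTG.
Btbd7, chr12:102878443-102878692, minus strand: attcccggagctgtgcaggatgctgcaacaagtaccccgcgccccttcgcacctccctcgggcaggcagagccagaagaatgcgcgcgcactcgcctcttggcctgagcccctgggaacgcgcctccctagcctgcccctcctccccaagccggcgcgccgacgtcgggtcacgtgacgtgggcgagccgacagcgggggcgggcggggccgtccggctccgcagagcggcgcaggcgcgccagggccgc
Snai1, chr2:167537945-167538194, plus strand: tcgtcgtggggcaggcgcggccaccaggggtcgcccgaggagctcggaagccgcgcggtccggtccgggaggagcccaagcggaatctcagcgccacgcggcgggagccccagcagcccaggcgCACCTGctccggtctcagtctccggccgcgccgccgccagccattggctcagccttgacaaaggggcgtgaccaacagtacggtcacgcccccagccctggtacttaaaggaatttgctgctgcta
The Snai1 window holds 1 such E-box and the Btbd7 window none. In all, 17.2% of 32851 promoter windows of this length hold one.

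Of the 9 members, 4 had PROMPT counts that passed the low-count filter, and all 4 rose in the mean of the 3 Zcchc8 KO clones. Of the 17711 regions tested, 43.2% were called in that comparison and 39.7% as higher, so the members' count is read against a general rise, with a median log2 fold change of 0.45 over all tested regions. The Btbd7 and Cdh1 regions had 8 or fewer counts in every control library. They and the Zeb1 region passed the filter through the clones, where their counts are high. The count of 4 of 4, and the p-values of these regions against the controls, are thus descriptions and support nothing. Scaling within the PROMPT table sets the median of all regions to 0.01 by its construction and turns the calls from 7037 higher and 620 lower to 5108 higher and 3921 lower. Btbd7 KO called 0 of the 4 (edgeR), against 3.02% of all tested regions (1.32% higher), and 0 of the 4 had an unadjusted p under 0.05 or were called by DESeq2. By clone, clone 1 called 3 members as higher, against 43.1% of regions in either direction and 39.3% as higher, clone 2 called 4 (39.0% and 35.8%) and clone 3 called 3 (39.0% and 36.5%). Against Btbd7 KO the clones' mean called 4 of 4 as higher, where 51.3% of regions were called and 45.5% as higher.

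The PROMPT region of Btbd7 had 7, 6 and 0 counts in wild-type replicates 2 to 4 and 1, 8, 0 and 2 in Btbd7 KO. Clone 1 had 14, 23, 14 and 13, clone 2 had 27, 25, 34 and 17, and clone 3 had 17, 12, 12 and 26. In CPM all 12 clone libraries lay between 1.18 and 3.75 and all 7 control libraries at or below 0.531. The log2 fold change of the clones' mean was 2.74 (SE 0.58, edgeR adjusted p = 6.18e-05), while the gene itself was at 0.04 in the same comparison (95% interval -0.06 to 0.13). The PROMPT region was tested only because its counts are high in the clones, so its p-value is a description.

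Cdh1 had 3, 1 and 6 PROMPT counts in wild type and 5, 1, 1 and 0 in Btbd7 KO. The clones had 38, 7, 16 and 20 counts in clone 1, 10, 12, 22 and 12 in clone 2, and 43, 6, 13 and 32 in clone 3. In CPM the clone libraries, from 0.758 to 4.99, again lay above all the controls, whose highest was 0.352. The clones' mean was 8.31-fold higher than wild type (log2 change 3.05, SE 0.60, edgeR adjusted p = 1.87e-05). The Cdh1 gene itself was at 0.05 in the same comparison (95% interval -0.04 to 0.15). Its PROMPT region, like that of Btbd7, was tested only because its counts are high in the clones, so its p-value is a description.

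Fn1 had the most PROMPT reads of the 9, with 21, 23 and 30 counts in wild type, 11 to 46 in Btbd7 KO and 40 to 117 in the clones. Clone 1 stood at 10.3, 9.24, 9.92 and 7.87 CPM, clone 2 at 5.55, 6.75, 6.73 and 5.69, and clone 3 at 5.37, 8.33, 6.01 and 5.75. The controls did not pass 2.76 CPM, so the groups did not overlap, and the clones' mean was 4.58-fold higher (log2 change 2.20, SE 0.25, edgeR adjusted p = 4.10e-11). Btbd7 KO, whose Fn1 gene count was 1.88-fold above wild type, had a PROMPT log2 fold change of 0.03, with a 95% interval of -0.59 to 0.65. Per 100 counts in the Fn1 gene, the PROMPT region had 0.0527 ± 0.00857 in wild type (SD, n = 3), and Btbd7 KO had 0.0283 ± 0.0154 (SD, n = 4). Clone 1 had 0.239 ± 0.0354, clone 2 had 0.234 ± 0.0348 and clone 3 had 0.126 ± 0.0266 (SD, n = 4 each). Apol7d, on the opposite strand, extends upstream of the Fn1 start (chromosome 1, 71652837 to 71662843). Over the alternatives its gene counts were higher in the clones' mean by 2.13 to 3.49 on the log2 scale (edgeR and DESeq2 adjusted p 1.08e-05 to 0.0225). Whether Apol7d and the Fn1 PROMPT region share reads was not tested.

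Zeb1 had the smallest rise of the 4, at 1.42 in the clones' mean (SE 0.42, edgeR adjusted p = 0.00425). The region passed the low-count filter through the clones, so its p-values against wild type are descriptions. It was also the one PROMPT region of the 4 that differed between the clones (edgeR test with 2 degrees of freedom, adjusted p = 0.0252), where 10.9% of all tested regions did. Clone 2 was at 3.47, 3.52, 4.43 and 3.61 CPM, above every other library, while all the other libraries lay at or under 2.50 CPM. Clone 2 was called against wild type (2.26, SE 0.46, edgeR adjusted p = 5.31e-05), but clone 1 (0.98, edgeR adjusted p = 0.115) and clone 3 (1.02, edgeR adjusted p = 0.0893) were not. Both passed when wild-type replicate 4, the highest wild-type library at 1.41 CPM, was left out (1.77 and 1.81, edgeR adjusted p = 0.0109 and 0.00814; ranges over the alternatives 0.0109 to 0.419 and 0.00814 to 0.313). Clone 2 was also the highest group for Zeb1 gene counts. Per 100 counts in the Zeb1 gene, the PROMPT region had 7.33 ± 4.40 in wild type (SD, n = 3) and 8.02 ± 6.18 in Btbd7 KO (SD, n = 4). Clone 1 had 24.4 ± 13.5, clone 2 had 21.1 ± 2.90 and clone 3 had 33.9 ± 11.1 (SD, n = 4 each). By this ratio, which was not tested, the clones overlapped and clone 2 was not the highest. The annotated gene Gm2238 lies on the opposite strand just upstream of Zeb1 (chromosome 18, 5588043 to 5591711), and its gene counts equalled the Zeb1 PROMPT counts in 10 of the 19 libraries and came within 2 counts in 14. The 2 features are treated here as 1 observation.

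Snai1 was under the filter in the PROMPT table, with 1 count in all of wild type, 0 in Btbd7 KO and 21, 30 and 12 counts in clones 1, 2 and 3. Clone 1 had 5, 4, 8 and 4 counts, and clone 2 had 3, 4, 7 and 16. Every library of these clones was above every control library, but 4 against 3 libraries cannot give an exact permutation p under 0.0571, and that was the value for both (two-sided, 0.152 adjusted over the 8 tests). Clone 3, with 2, 0, 4 and 6 counts, overlapped wild type (exact permutation p = 0.229, adjusted 0.366). Fitted in edgeR without the low-count filter, the Snai1 region was called higher in clone 1 (log2 change 4.51, adjusted p = 0.00564) and clone 2 (4.15, adjusted p = 0.0129) and not in clone 3 (3.11, adjusted p = 0.116), and these fitted sizes depend on the prior count because the control counts are at or near 0. The Zeb2, Snai2, Vim and Cdh2 PROMPT regions had 8 or fewer counts in every library, and Cdh2 had 0 throughout.

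**Figure D4:**
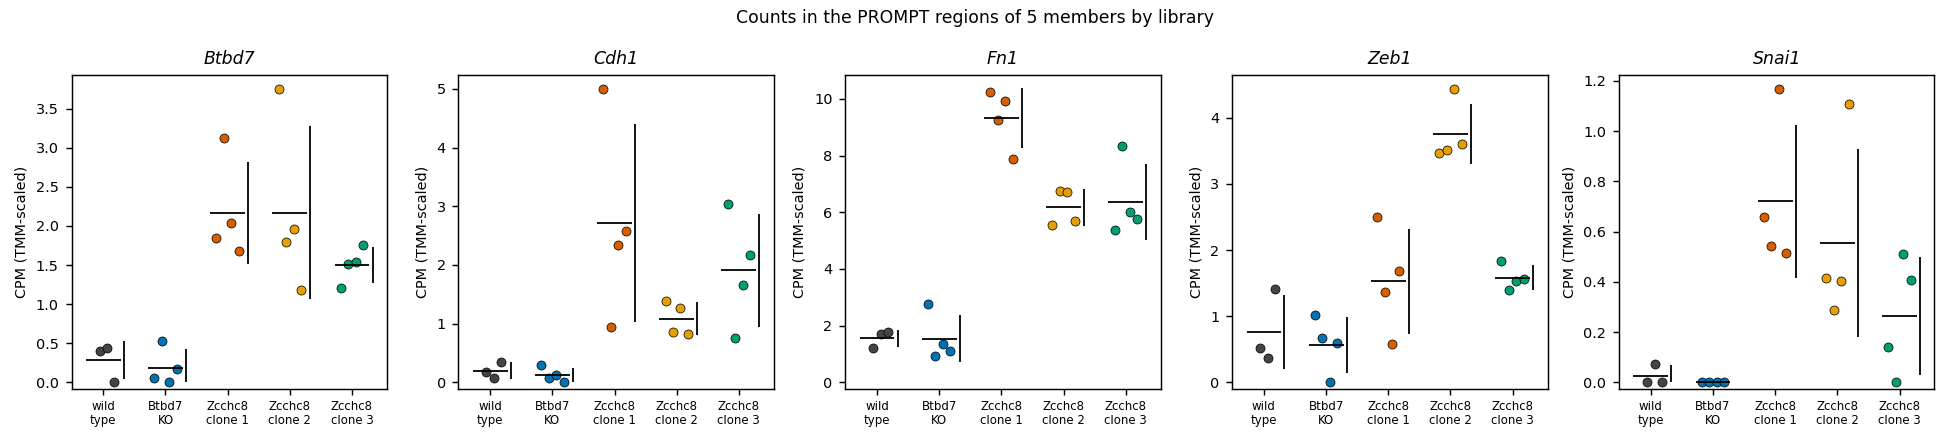
CPM in the PROMPT regions of 5 members in the 19 libraries that have a column, by group, on linear axes that differ between panels; points are libraries, horizontal lines are means and vertical lines are 1 SD. All 12 Zcchc8 KO libraries lie above all 7 wild-type and Btbd7 KO libraries for Btbd7, Cdh1 and Fn1, and clone 2 is the highest group for Zeb1. Of all 17711 tested regions 39.7% were called higher in the clones' mean, and the share that separates in this way was not counted.

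For a description of which genes varied most like the members, log2 CPM was correlated across the 20 libraries with 10775 genes of at least 50 counts on average. The libraries share 5 lines, so the correlations mostly reflect differences between lines. For Btbd7 the closest were Tfcp2l1, Tfap2a and Sorl1 (Pearson r 0.98, 0.96 and 0.95, n = 20). For Fn1 they were Pcdh19, Klhl1 and Rai1 (r 0.96, 0.95 and 0.94, n = 20). Cdh1 was closest to Erfe, Ldlrad4 and App (r 0.88, 0.87 and 0.86, n = 20). Among the repressors, Snai1 was closest to Tmc6 (r 0.90), Zeb1 to Ahr (r 0.91) and Zeb2 to B3gnt3 (r 0.90; n = 20 each). No other member was among the 3 closest genes of any member.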

How the data were processed

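Total RNA of 20 libraries was prepared with a stranded kit (Illumina TruSeq), per the labels' protocols, and FastQC and STAR 2.7.3a are named in the submitters' processing notes. The counter, its strand setting, the genome build and the extent of a PROMPT region are not given in the sources used here. The authors deposited raw read counts per gene (20 libraries) and per PROMPT region (19 libraries), and 7 other files were not used. Reads carried no molecular identifiers that the labels name. Positions and exon lengths come from GENCODE M21 on GRCm38, which matched 54573 of 55471 gene identifiers with their version.

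Counts were scaled by TMM and fitted in 1 edgeR 4.0.16 quasi-likelihood model over all 5 groups (R 4.3.3), after edgeR's filter on low counts; PROMPT regions used library sizes and TMM factors of the gene table. Adjusted p-values are Benjamini-Hochberg over all tested features, and a call is an adjusted p under 0.05. The fit was tested on simulated data: of 200 changed genes, 63% were recovered in Btbd7 KO against wild type over 15296 genes, with 86.4% of those changed 4-fold and 44.8% of those changed 1.5-fold. Of 200 changed PROMPT regions, 41.5% were recovered in the same comparison over 17711 regions, with 75.8% at 4-fold and 7.46% at 1.5-fold. The simulation gave all groups the same spread for each feature and used the known scaling. Its rates therefore do not cover the wider spread between the wild-type libraries. Exact permutation tests (scipy 1.17.1) were used for Snai2 and for the Snai1 PROMPT region. DESeq2 1.42.0, other filters and scalings, a replicate block and leaving out each library were the alternatives. Correlations used log2 CPM with a pseudocount of 0.5. The members and gene lists were chosen with earlier results of these data known, and so support nothing independently. In each list, up to 3 called genes per direction with the largest change and a mean of at least 50 counts were eligible to be named, as was any called gene of a list with 5 or fewer calls. In the clones' mean only some of these are given. Btbd6, Ctnnb1, Itgb1, Itga5 in Btbd7 KO, Col1a2 and Col3a1 are outside this rule and were chosen after their values were seen. The values of 1 gene that the rule names are not reported here.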

Additional observations from a re-analysis of the deposited data

Results flagged for a closer look

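The 3 Zcchc8 KO clones differed from each other (edgeR test with 2 degrees of freedom) in Fn1 (adjusted p = 4.97e-11), Zeb2 (adjusted p = 4.91e-06), Zeb1 (adjusted p = 6.8e-06), Cdh1 (adjusted p = 3.06e-05), Snai1 (adjusted p = 0.00283) and Vim (adjusted p = 0.0272), and in the Zeb1 PROMPT region (edgeR adjusted p = 0.0252). Vim was tested only because its counts are high in clone 2.

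Single libraries lay far from the rest of their group in 9 of the 66 groups of values checked with Dixon's test. In gene counts these were Cdh1 in clone 2 replicate 2 at 323 CPM, Snai2 in clone 2 replicate 3 at 0.0574 CPM and Vim in wild-type replicate 1 at 0 CPM. In PROMPT regions they were Zeb1 in clone 2 replicate 3 at 4.43 CPM, Snai1 in clone 2 replicate 4 at 1.11 CPM, Zeb2 in clone 2 replicate 3 at 0.0575 CPM and in clone 3 replicate 4 at 0.270 CPM, and Vim in Btbd7 KO replicate 4 at 0.0848 CPM and in clone 1 replicate 1 at 0.394 CPM. Apart from those of Cdh1 and the Zeb1 PROMPT region, these rest on few counts.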

How the results depend on the processing

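Btbd7 and Fn1 in Btbd7 KO, and Fn1 in clones 1 and 3, kept direction and call under all alternatives run. Fitting only the groups compared lowered the genes called to 1222 in Btbd7 KO (from 2417), 3074 in clone 1 (5365), 2714 in clone 2 (4847) and 2364 in clone 3 (4421), the PROMPT regions called in Btbd7 KO to 311 (535), and the members called in clone 2 to 1 (2), and raised the PROMPT members differing between clones to 3 (1). The cause was not tested. Without the low-count filter 6 members were called in Btbd7 KO (4), 5 in clone 1 (4), 4 in clone 2 (2) and 4 in clone 3 (3). Of the 30034 genes then fitted, 1291 were called higher and 1274 lower in Btbd7 KO. In clone 1 these counts were 2705 and 2727, in clone 2 they were 2604 and 2389, and in clone 3 they were 2315 and 2224. With cell lines as replicates, and wild type and Btbd7 KO together as the reference, the clones' mean called 0 members (edgeR) and 1080 genes (5417), with Fn1 at -0.11 and Gm47166 at 0.15.

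Small differences changed sign: Btbd7 in clone 1 was at 0.0120 with DESeq2, 0.0381 with total counts in place of TMM and 4.1e-05 with only the groups compared; Cdh1 in the clones' mean against Btbd7 KO was at 0.0126 with DESeq2 and 0.0447 with total counts, which also put Snai1 there at 0.0294 and Zeb2 in the clones' mean against wild type at 0.0134. The causes were not tested. Total counts gave 3164 genes higher and 1620 lower in clone 2, 2776 and 1540 in clone 3, and 3563 and 2476 in the clones' mean against Btbd7 KO. Scaling within the PROMPT table gave 318 regions higher and 235 lower in Btbd7 KO (233 and 302).

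Leaving out single libraries, members called ran from 2 to 4 in Btbd7 KO, 1 to 3 in the clones' mean and 1 to 4 in clone 2. Over all genes the calls ran from 1830 to 3152, 5069 to 5703 and 4127 to 5334. PROMPT members called ran from 3 to 5 in clone 1 and 0 to 1 between clones, and all regions called from 7142 to 7346 and 1554 to 1744. The low-count filter was applied anew in each fit, so the regions of more than 4 members could be tested. PROMPT regions called in Btbd7 KO ran from 341 to 568. Signs changed in these ranges: in the clones' mean against wild type, Zeb2 -0.168 to 0.00760, Cdh1 -0.00409 to 0.0637 and Vim -0.44 to 0.28; against Btbd7 KO, Snai1 -0.11 to 0.11, Cdh1 -0.0409 to 0.000787 and Vim -0.14 to 0.68; Btbd7 -0.0554 to 0.0135 in clone 1 and -0.0100 to 0.0411 in clone 3; Snai1 -0.28 to 0.19 and Vim -1.70 to 0.0626 in clone 3; and in the PROMPT regions of Btbd7 KO, Btbd7 -1.63 to 0.0397, Zeb1 -0.72 to 0.47, Cdh1 -1.66 to 0.0485 and Fn1 -0.48 to 0.24. None of these was called.

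Same-numbered libraries did not deviate together (r -0.07 to 0.10 over 40 pairs, none above 0.1). With the replicate number as a block, 2382 genes were called in Btbd7 KO with the same count of 4 members, and the Fn1 PROMPT region in Btbd7 KO was at -0.0449.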
